A study of Saccharomyces cerevisiae with 18 samples.

Results

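The comparison set the 3 arrays of Δ*apn1*/p*MAG*/p*APN1* against the 3 arrays of Δ*apn1*/p*APN1*, chosen by their strain labels as 6 of the 18 Affymetrix Yeast Genome S98 arrays of the study. It asks what overexpression of *MAG1* changes in cells that also overexpress *APN1*. Both strains derive from the *Saccharomyces cerevisiae* strain BGY111, a MATa strain that needs histidine, leucine, uracil and tryptophan to be supplied or carried as a marker, in which the chromosomal *APN1* was replaced by the *apn1-1::HIS3* disruption, and both carry the multicopy plasmid pYepAPN1-2A. They differ in the second plasmid, which is pYES-MAG with *MAG1* behind a galactose promoter in the first strain and the empty pYES in the second. All cultures were grown at 30°C with galactose and without uracil, which selects for the pYES plasmids, and each strain was sampled as 3 separate cultures, 1 array per culture. Selection for leucine, which keeps the *APN1* plasmid in the cells, is stated for other cultures of the study but not for those used on the arrays. Below, the 3 arrays of Δ*apn1*/p*MAG*/p*APN1* are called p*MAG* replicates 1 to 3 and those of Δ*apn1*/p*APN1* control replicates 1 to 3.

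Mag1 is a DNA glycosylase that removes alkylated purines, 3-methyladenine above all, and also some undamaged purines, and each base it removes leaves an abasic site. Apn1 is the main AP endonuclease of budding yeast and cuts the DNA backbone at such sites so that repair can be completed. When abasic sites or breaks interfere with replication, the Mec1 and Rad53 checkpoint kinases activate Dun1, which inactivates the repressor Rfx1 and so releases *RNR3*, a gene for a ribonucleotide reductase large subunit, and *HUG1*, a small inhibitor of that enzyme.

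Values are log2 signals after robust multi-array averaging (RMA), and a difference is the mean of the p*MAG* arrays minus the mean of the control arrays, given with its standard error from limma. Array medians lay between 1.63 and 1.72, and a value under the lowest median is not shown to be above background. The 6 arrays correlated at 0.947 or more with each other. Levels of mating genes fitted the MATa label, since the a-pheromone gene *MFA2* read from 8.94 to 9.80 on the 6 arrays and *STE3*, the receptor gene of MATα cells, from 1.70 to 1.91.

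The genes on the plasmids were read first. *MAG1* read 3.80, 2.83 and 1.82 on p*MAG* replicates 1 to 3 and 1.20, 0.98 and 1.41 on control replicates 1 to 3. Every p*MAG* array was above every control array, but the lead of replicate 3 was small, and the control values lie under the lowest array median. The difference was 1.62 ± 1.26 (adjusted p = 0.985 in limma), where the error is shared with the other *MAG1* strains. A limma fit of the 6 arrays alone gave an adjusted p of 0.535. *APN1* read 4.57, 7.48 and 7.26 on the p*MAG* arrays and 7.96, 7.49 and 7.27 on the controls. The low value of p*MAG* replicate 1 lay just above the range of 2.81 to 4.38 on the 6 Δ*apn1* arrays without p*APN1*. *LEU2*, the marker of the *APN1* plasmid, behaved alike on its brightest probe set, with 5.94, 9.95 and 9.15 against 9.85, 9.17 and 9.005. Its 5.94 on p*MAG* replicate 1 fell inside the range of 4.05 to 6.73 on the 12 arrays without the *APN1* plasmid. On its dimmer probe sets p*MAG* replicate 3 also lay below every control. It read 4.36 against 4.95 to 6.46, and 4.57 against 5.58 to 6.59. These values were above the highest on the arrays without that plasmid (3.29 and 3.71), whereas those of p*MAG* replicate 1 (2.42 and 2.78) were not. On the array labelled Δ*apn1*/p*MAG*/p*APN1* replicate 1, transcripts of both genes of that plasmid were thus near the level of strains that do not carry it. The count of probe sets without this array stands beside that with it, as do the counts of some lists. For most genes past the thresholds below, the single arrays that the call needed are named, in most cases with the difference without them.

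*URA3*, the marker of both pYES plasmids, read 4.98, 4.90 and 5.42 on the p*MAG* arrays and 6.73, 5.94 and 5.18 on the controls, and these ranges overlapped. *HIS3*, which marks the *apn1* disruption in both strains, was higher with p*MAG* on both of its probe sets, by 0.75 ± 0.28 on the brighter and 0.67 ± 0.21 on the dimmer, past the thresholds given below but not the adjusted test. The brighter lost them without p*MAG* replicate 1 (0.67) or 3 (0.60) or control replicate 3 (0.62), and the dimmer without p*MAG* replicate 1 (0.50).

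**Figure D1:**
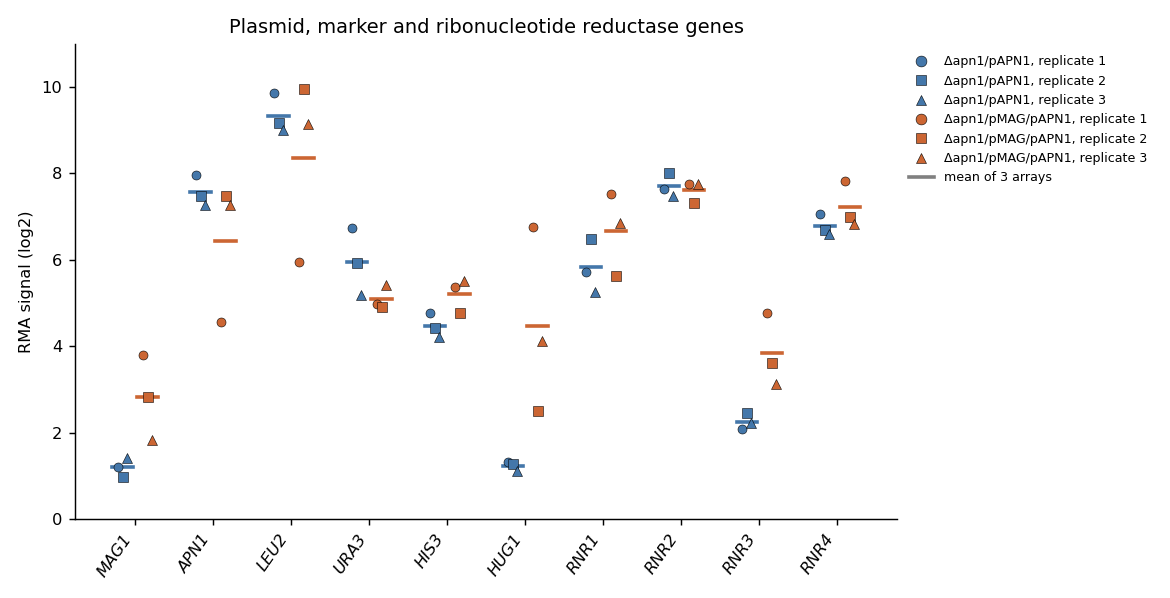
RMA signal on the log2 scale (y axis) of the plasmid genes *MAG1* and *APN1*, the markers *LEU2*, *URA3* and *HIS3* and the ribonucleotide reductase genes with their inhibitor gene *HUG1* (x axis), 1 point per array and a bar for the mean of 3 arrays. On p*MAG* replicate 1 *APN1* (4.57) and *LEU2* (5.94) stand below the other arrays, while *MAG1* (3.80), *HUG1* (6.75) and *RNR3* (4.77) are highest there.

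A further 2 arrays stood apart from their replicates. Control replicate 1 had 76 single-gene probe sets that read at least 1.5 below both other control arrays, against 1 and 4 on control replicates 2 and 3 and 1 to 10 on the p*MAG* arrays. Their probe set numbers all lay between 6538 and 9416, a span that holds 34% of the single-gene probe sets, and 57 of them read below 1. *GAL7*, a galactose enzyme gene, read 0.67 there but 8.85 and 8.41 on the other controls and 8.93, 9.64 and 8.86 on the p*MAG* arrays. *UBC4*, which encodes a ubiquitin-conjugating enzyme and was picked after its values were seen, read 0.80 there against 6.60 and 6.59. The positions of the probes on the array were not used here, and the cause was not tested. On p*MAG* replicate 2, 62 probe sets read at least 1.5 above both other p*MAG* arrays, against 0 to 6 on the other 5 arrays, and many of them belong to stress and carbohydrate reserve genes, described below.

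**Figure D2:**
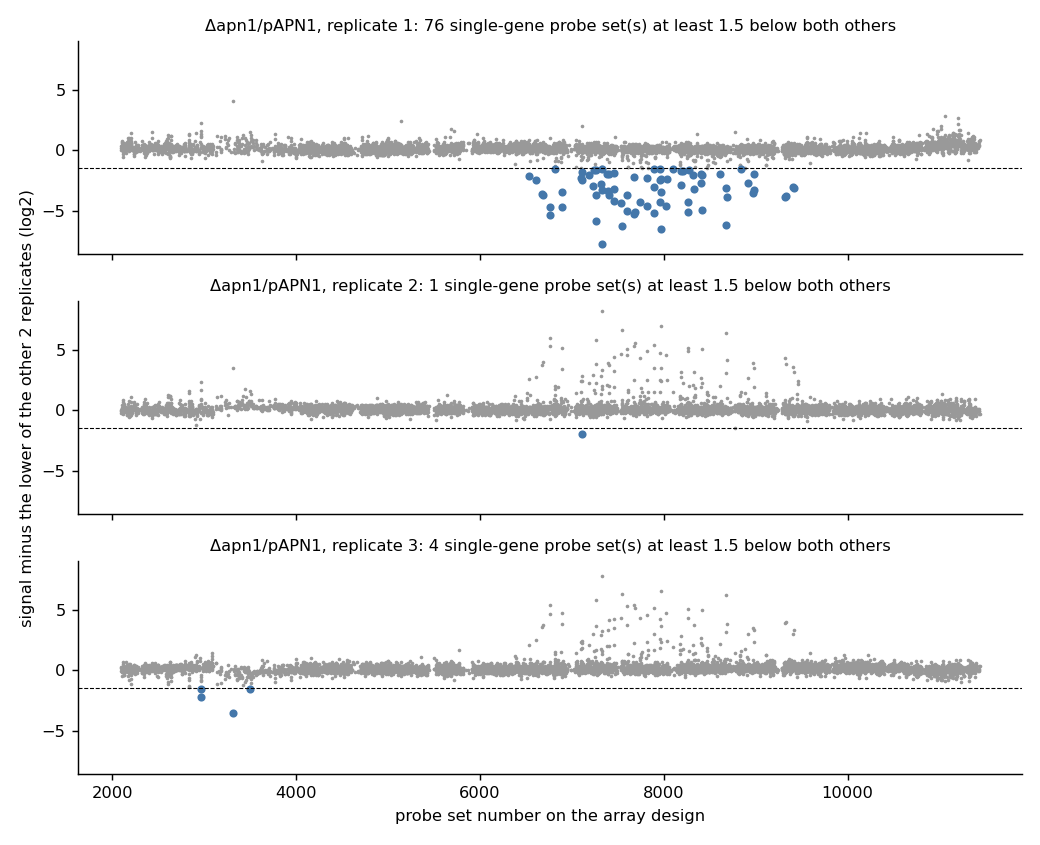
Signal of each single-gene probe set on 1 Δ*apn1*/p*APN1* array minus the lower of the other 2 replicates (y axis, log2) against the probe set number of the array design (x axis), 1 panel per replicate; the dashed line marks 1.5 below. The 76 low probe sets of replicate 1 gather between numbers 6538 and 9416, while replicates 2 and 3 have 1 and 4.

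Of 6504 single-gene probe sets for 5656 genes, 0 (0%) had an adjusted p under 0.05 by limma, nor did any by the methods' test (0), which is the same comparison without limma's sharing of variance. The smallest adjusted p was 0.0971, for the S-methylmethionine permease gene *MMP1* and the multidrug transporter gene *AQR1*. At an unadjusted p under 0.05, limma gave 361 probe sets (5.55%; 155 higher and 206 lower with p*MAG*) and the methods' test 349. The thresholds that the methods state are a change of at least 1.5-fold together with an unadjusted p under 0.05. They were passed by 158 probe sets (2.43%) of 153 genes, 80 higher and 78 lower. Counted once per gene on its brightest probe set, 78 genes (1.38%) were higher and 71 (1.26%) lower. Since 5.55% at p under 0.05 is close to the share of 5% that this threshold alone allows, the genes named below are described by their values, and which of them would pass in new cultures is not known.

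The 3 p*MAG* arrays and the 3 control arrays did not overlap in 133 of the 158 probe sets and overlapped in 25. Over all 6504 probe sets they did not overlap in 916 (14.1%). With 1 array left out at a time, 36 of the 158 passed the same thresholds in all 6 fits, 20 higher and 16 lower. Without p*MAG* replicate 1, 101 probe sets passed (52 higher, 49 lower), of which 77 were among the 158. Without control replicate 1, 136 passed (50 higher, 86 lower). Of the 80 higher probe sets, 18 were among the 76 that were low on control replicate 1, including *GAL7*, *GAL10*, *UBC4*, *ADH5* and *PUT4*, and 0 of the 78 lower ones were. Without that array *GAL7*, *GAL10*, *UBC4* and *ADH5* had differences of 0.43 to 0.77 and lost the thresholds. Without p*MAG* replicate 2 these 4 genes lost them too, and *GAL7*, *UBC4* and *ADH5* also without p*MAG* replicate 1 or 3.

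The DNA damage response gene *HUG1* had the largest difference of the ribonucleotide reductase genes. It read 6.75, 2.51 and 4.11 on p*MAG* replicates 1 to 3 and 1.31, 1.27 and 1.11 on control replicates 1 to 3. The groups did not overlap, replicate 1 was far above the other p*MAG* arrays, and the control values lay under the lowest array median. The difference of 3.23 ± 0.73 had an adjusted p of 0.347 in limma (0.0147 to 0.999 over the alternatives). It was 2.08 ± 0.48 without p*MAG* replicate 1 and 4.20 without p*MAG* replicate 2 (adjusted p = 0.0147). *RNR3* read 4.77, 3.60 and 3.13 against 2.08, 2.45 and 2.23, again with no overlap and with replicate 1 highest. Its difference was 1.58 ± 0.38 (adjusted p = 0.367), and 1.11 ± 0.33 without p*MAG* replicate 1. Its probe set can also bind a related transcript, according to its suffix.

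The other subunit genes did not pass the thresholds. *RNR1*, which encodes the main large subunit, read 7.52, 5.64 and 6.85 against 5.72, 6.49 and 5.26, so that replicate 2 lay within the controls (0.85 ± 0.62). The small subunit genes *RNR2* and *RNR4* had differences of -0.11 ± 0.28 and 0.44 ± 0.28. *RNR4* was highest on p*MAG* replicate 1, at 7.82 against 6.61 to 7.05 on the controls, and the other p*MAG* arrays read 6.997 and 6.83. *DUN1*, the kinase gene upstream of Rfx1, was higher by 0.34 ± 0.14, which is under 1.5-fold. Of the 13 measured genes of ribonucleotide reductase and its control, *HUG1* and *RNR3* passed higher and 0 lower, and the median difference was 0.01 against -0.00407 over all genes.

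Of 8 measured genes of a DNA damage signature, 1 passed, *FMP52*, with 7.55, 7.22 and 7.56 against 6.88, 6.69 and 6.92 (0.61 ± 0.15). It lost the thresholds without p*MAG* replicate 1 or 3 and without control replicate 2. The median of the list was 0.25, and its members include the overexpressed *MAG1* itself. The 7 lists of base excision repair, checkpoint, translesion synthesis, recombination, excision and mismatch repair, DNA replication and histones held 128 measured genes, of which 0 passed the thresholds in limma and 0 in the methods' test. At p under 0.05 alone there were 5 in limma and 11 in the methods' test. The 128 include the plasmid genes *MAG1* and *APN1*, both in the base excision repair list. *NTG2*, a glycosylase and AP lyase gene of base excision repair, had a difference of 0.96 ± 0.46 (adjusted p = 0.908), with 3.19, 2.84 and 2.58 against 0.54, 2.51 and 2.70, so that its low control is the array with the 76 low probe sets. The histone genes *HTB1* and *HTB2* had differences of -0.34 ± 0.23 and -0.34 ± 0.28.

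Among the 12 genes with the smallest p that were higher with p*MAG*, *AQR1* had the most even replicates. It read 1.99, 1.94 and 1.93 against 1.22, 1.02 and 1.19, a difference of 0.81 ± 0.14 (adjusted p = 0.0971), with all control values under the lowest array median. *PDR10*, which encodes an ABC transporter of the pleiotropic drug response, read 5.12, 5.11 and 4.77 against 3.44, 3.75 and 3.74 (1.36 ± 0.28, adjusted p = 0.347). *RSB1*, which encodes a sphingoid base transporter, read 3.42, 2.61 and 2.89 against 1.70, 1.75 and 1.98 (1.17 ± 0.27). All 3 genes kept the thresholds whichever array was left out. *RTA1*, a lipid-translocating family member related to *RSB1*, was higher by 0.69 ± 0.17, but by less than 1.5-fold without p*MAG* replicate 1 (0.58). Of the 14 measured genes of the pleiotropic drug response list, *PDR10* and *RSB1* passed higher and 0 lower, with a median of 0.43 that ranged from 0.294 to 0.498 when single arrays were left out. Without p*MAG* replicate 1, 3 of them passed higher and 0 lower.

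*ECM13*, a gene of unknown function, read 3.45, 2.47 and 4.79 against 1.71, 1.65 and 1.85 (1.83 ± 0.42, adjusted p = 0.367), and *SGA1*, the glucoamylase gene of sporulating cells, was higher by 0.68 ± 0.16. *HXT5*, a hexose transporter gene of slowly growing cells, read 3.79, 4.16 and 3.77 against 2.99, 2.98 and 3.08 (0.89 ± 0.20). Its relatives *HXT6* and *HXT7* were lower. *HXT6* read 8.30, 9.42 and 8.38 against 9.70, 9.66 and 9.87 (-1.04 ± 0.23) and *HXT7* 7.79, 9.18 and 7.92 against 9.34, 9.39 and 9.58 (-1.14 ± 0.28). These high-affinity transporter genes are nearly identical, so their probe sets cannot be told apart. Replicate 2 lay near the controls in both. Without it the adjusted p was 0.00186 for each, with differences of -1.40 and -1.58. Of 13 measured hexose transporter genes, 1 passed higher and 2 lower.

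The gene with the smallest p overall was *MMP1*, with 3.78, 2.69 and 3.57 on the p*MAG* arrays and 4.96, 4.94 and 4.92 on the controls. The groups were well apart and the controls differed by less than 0.1. The difference of -1.59 ± 0.26 had an adjusted p of 0.0971 (0.0274 to 0.608 over the alternatives) and was -1.81 ± 0.27 without p*MAG* replicate 1. *MID2*, a sensor of cell wall stress, read 4.35, 4.17 and 4.82 against 5.08, 5.18 and 5.63 (-0.85 ± 0.18), and the uncharacterised *YLR177W* 1.32, 1.83 and 1.74 against 2.51, 2.73 and 3.22 (-1.19 ± 0.26). The *YLR177W* value of p*MAG* replicate 1 lay under the lowest array median. *SIC1*, which encodes an inhibitor of S-phase cyclin-dependent kinase, read 2.34, 2.51 and 2.61 against 3.03, 3.08 and 3.19 (-0.61 ± 0.16). It fell under the 1.5-fold threshold without p*MAG* replicate 1 (-0.54) and without control replicate 3 (-0.57). The rRNA processing gene *FYV7* (-1.01 ± 0.26), *SUI2*, which encodes the alpha subunit of eIF2 (-0.78 ± 0.20), *MBR1* (-0.83 ± 0.22), *MTC1* (-0.64 ± 0.17) and *PAN3*, a poly(A) nuclease subunit gene (-0.60 ± 0.17), complete the 12 with the smallest p, beside the hexose transporters and *GAC1*. Of these, *SUI2* was the only one whose groups overlapped. *FYV7* kept the thresholds in every such fit but moved to -0.61 without p*MAG* replicate 2. *PAN3* lost them without p*MAG* replicate 1 (-0.39) and without control replicate 2 (-0.57) or 3 (-0.55), and *MTC1* without p*MAG* replicate 1 (-0.56) and without control replicate 1 (-0.57) or 2 (-0.53). *MBR1* lay just under 1.5-fold without p*MAG* replicate 3 (-0.585).

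**Figure D3:**
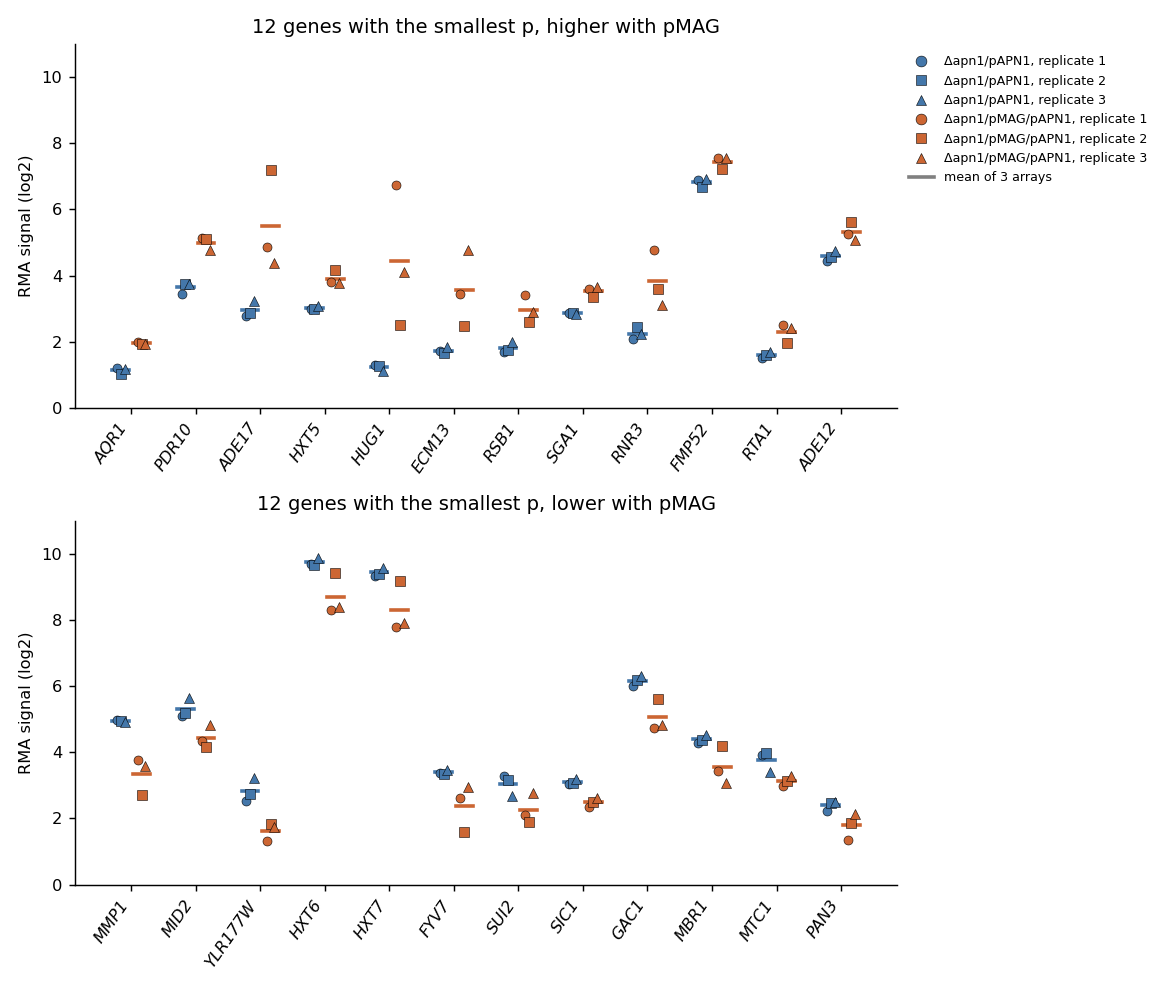
RMA signal on the log2 scale (y axis) of the 12 genes with the smallest p that were higher (top panel) and lower (bottom panel) with p*MAG* (x axis, smallest p at left), 1 point per array and a bar for the mean of 3 arrays. For *MMP1* the 3 controls lie between 4.92 and 4.96 and the p*MAG* arrays between 2.69 and 3.78; for *HUG1* the p*MAG* arrays spread from 2.51 to 6.75.

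Of 20 measured purine synthesis genes 4 passed the thresholds higher with p*MAG* and 0 lower, and the median was 0.44. *ADE17*, which encodes the enzyme of the last steps to inosine monophosphate, read 4.86, 7.21 and 4.40 against 2.78, 2.88 and 3.23 (2.52 ± 0.55, adjusted p = 0.347). All p*MAG* arrays were above all controls and replicate 2 was highest. Without p*MAG* replicate 2 the difference was 1.66, still past the thresholds, and without replicate 1 it was 2.84. *ADE12*, for the first step from inosine monophosphate to AMP, read 5.26, 5.62 and 5.08 against 4.45, 4.56 and 4.76 (0.73 ± 0.19), and lay just under 1.5-fold without p*MAG* replicate 2 (0.58). *ADE8* had a difference of 0.80 ± 0.23 and *ADE2* of 1.10 ± 0.50. *ADE2* read 6.56 on replicate 2 against 4.79 and 5.10 on the other p*MAG* arrays, and its difference was 0.56, under 1.5-fold, without replicate 2; it also lost the thresholds without control replicate 1 (1.10) or 2 (0.92). Without p*MAG* replicate 2, 2 members of the list passed higher and 1 lower. Without p*MAG* replicate 1, 7 passed higher and 0 lower, and without p*MAG* replicate 3, 8 and 0. Without single control arrays 3 to 5 passed higher and 0 lower. The list median ranged from 0.196 to 0.597 without single arrays.

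Amino acid synthesis genes passed in part. *HIS4*, which encodes a histidine enzyme with 3 activities, read 8.13, 8.396 and 8.78 against 7.42, 7.27 and 7.32 (1.099 ± 0.31) and kept the thresholds whichever array was left out. *HIS1*, for the first enzyme of the pathway, was higher by 0.62 ± 0.23 and lost the thresholds without p*MAG* replicate 1 (0.36) and without control replicate 2 (0.54). *HIS5* was higher by 0.57 ± 0.14 but by less than 1.5-fold. All 6 measured histidine genes had positive differences, 2 passed, and the median was 0.52. Without p*MAG* replicate 1, 1 passed.

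The lysine list had the highest median of all 43, 0.59, with 3 of 9 genes past the thresholds and 0 lower. *LYS9* read 4.86, 4.25 and 4.68 against 3.88, 3.69 and 3.74 (0.83 ± 0.30), and *LYS2* was higher by 0.74 ± 0.34. *LYS1* read 5.60, 4.18 and 5.60 against 4.23, 4.13 and 4.02 (1.00 ± 0.37), so that replicate 2 lay among the controls. None of the 3 passed without p*MAG* replicate 1, where their differences were 0.70 to 0.76 and the list had 0 genes past the thresholds. *LYS1* lost them also without p*MAG* replicate 3 (0.77), and *LYS2* without any single array other than p*MAG* replicate 2 (0.52 to 0.78). The aromatic amino acid gene *ARO3* read 6.80, 6.80 and 6.61 against 6.02, 5.85 and 6.05 (0.76 ± 0.20) and kept the thresholds without any array. The serine synthesis genes *SER1* (0.71 ± 0.29) and *SER2* (0.91 ± 0.24), outside the lists and named after their values were seen, also passed. *SER2* kept the thresholds without any array, and *SER1* lost them without p*MAG* replicate 2 (0.41) or control replicate 2 (0.62). Of 8 arginine and 10 branched-chain amino acid genes 0 passed the thresholds, and by limma as by the methods' test 0 had an unadjusted p under 0.05.

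**Figure D4:**
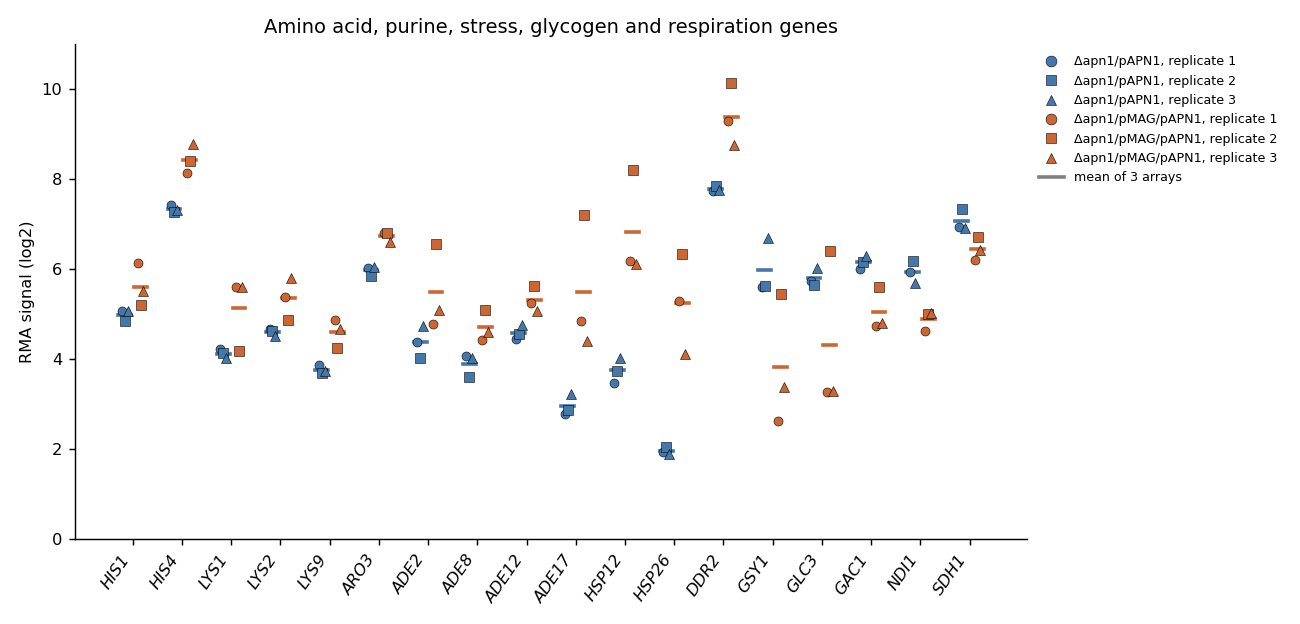
RMA signal on the log2 scale (y axis) of genes of amino acid and purine synthesis, stress, glycogen metabolism and respiration (x axis), 1 point per array and a bar for the mean of 3 arrays. *HIS4*, *ARO3* and *HSP26* show no overlap between the groups, while p*MAG* replicate 2 reads 6.41 for *GLC3* against 3.27 and 3.29 on the other p*MAG* arrays.

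Small heat shock genes gave 2 of the largest differences. *HSP26*, a small chaperone gene, read 5.30, 6.33 and 4.12 against 1.94, 2.06 and 1.90 (3.28 ± 0.98), and *HSP12*, a membrane-associated stress protein gene, 6.18, 8.20 and 6.11 against 3.48, 3.74 and 4.04 (3.07 ± 0.95). Both groups were well apart, and both genes kept the thresholds whichever array was left out. The stress gene *DDR2* read 9.29, 10.13 and 8.75 against 7.73, 7.84 and 7.76 (1.61 ± 0.63), and it lost the thresholds without p*MAG* replicate 2 (1.24). The remaining 24 of the 26 heat shock and chaperone genes did not pass, and the median of the list, 0.31, dropped to 0.0438 without p*MAG* replicate 2. Of 34 genes of oxidative stress and reductases, *GRE2*, a reductase gene (4.61, 4.98 and 4.64 against 3.38, 3.28 and 3.34; 1.41 ± 0.42), and the thioredoxin peroxidase gene *AHP1* (0.84 ± 0.30) passed. *GRE2* kept the thresholds without any array, and *AHP1* lost them without p*MAG* replicate 1 (0.73).

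Genes of glycogen metabolism were lower in part, and the p*MAG* arrays disagreed among themselves. *GAC1*, a subunit of the phosphatase that activates glycogen synthase, read 4.73, 5.60 and 4.81 against 6.01, 6.17 and 6.30 (-1.11 ± 0.30, adjusted p = 0.487). It kept the thresholds whichever array was left out. *GSY1*, a glycogen synthase gene, read 2.63, 5.45 and 3.39 against 5.61, 5.63 and 6.70 (-2.16 ± 0.76), with replicate 2 just under the controls. It lost the thresholds without p*MAG* replicate 1 (-1.56) and without control replicate 3 (-1.80). *GLC3*, the branching enzyme gene, read 3.27, 6.41 and 3.29 against 5.73, 5.66 and 6.03 (-1.48 ± 0.68), and there replicate 2 was above all controls. Its difference was -2.53 without replicate 2, and it lost the thresholds without any other single array (-1.56 to -0.96). *GLG1*, which encodes a glycogenin that starts the chain and is named after its values were seen, was lower by 0.97 ± 0.30 and also kept the thresholds in every such fit.

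Several members of the same stress list showed the pattern of *GLC3*. *TSL1*, a trehalose synthase subunit gene, read 3.91, 6.75 and 3.49 against 4.97, 5.08 and 5.64, and *GAD1*, the glutamate decarboxylase gene, 2.79, 6.66 and 1.97 against 4.31, 4.20 and 5.03. In both, p*MAG* replicates 1 and 3 were below and replicate 2 above every control. The glycogen phosphorylase gene *GPH1* read 8.11 on replicate 2 against 3.72 and 3.74, and 0.61, 5.62 and 5.92 on the controls, which again had the low value on control replicate 1. Of the 24 general stress genes 15 were at least 1.5 higher on p*MAG* replicate 2 than on both others. With all 6 arrays 2 of the 24 passed higher, 3 lower, and the median was 0.11. Without p*MAG* replicate 1, 3 passed higher, 1 lower, and the median was 0.346. Without p*MAG* replicate 2, 1 passed higher, 9 lower, and the median was -0.578. The median was also below 0, at -0.0451, without control replicate 1, so the direction of this list depended on single arrays.

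Genes of mitochondrial function were mostly a little lower with p*MAG*. *NDI1*, which encodes the internal NADH dehydrogenase, read 4.63, 5.01 and 5.02 against 5.93, 6.19 and 5.70 (-1.05 ± 0.31) and kept the thresholds whichever array was left out. It was the only 1 of 35 respiratory chain and ATP synthase genes past the thresholds. The median of the list was -0.24, and 33 of the 35 (94.3%) had negative differences against 50.9% of all genes. It stayed negative, from -0.310 to -0.155, without any single array. Of 73 mitochondrial ribosomal protein genes 61 had negative differences, 3 passed lower (*MRP49*, *MRPL24* and *MRPL31*, by 0.65 to 0.68) and the median was -0.21. None of the 3 passed without p*MAG* replicate 1 (-0.64 to -0.46), where 2 other genes of the list did, *MRP4* and *RSM26*. *MRP49* lost the thresholds also without control replicate 3, *MRPL31* without control replicate 1 or 3, and *MRPL24* without p*MAG* replicate 2 and without control replicate 2 or 3, so that the list had 1 to 6 genes lower when single arrays were left out. The import factor gene *MIA40* (-0.67 ± 0.21) and the succinate dehydrogenase gene *SDH1* (-0.62 ± 0.25) passed in their lists of 38 and 23 genes. Both lost the thresholds without p*MAG* replicate 1 (-0.48 and -0.49), where 0 genes of either list passed, and *SDH1* also without p*MAG* replicate 3 (-0.61) or control replicate 2 (-0.48).

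Cytosolic ribosomal protein genes, 81 measured, had 0 members past the thresholds and 0 with p under 0.05 in limma or in the methods' test. Their median was -0.16, but -0.321 without p*MAG* replicate 1 and 0.0816 without replicate 2, so its sign depended on 1 array. Without p*MAG* replicate 1, 3 members passed lower (*RPL15A*, *RPS10B* and *RPS12*), and without p*MAG* replicate 3, 3 others. Without control replicate 3, 1 passed lower (*RPL39*).

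The galactose list gave 2 genes past the thresholds higher, *GAL7* and *GAL10*, both low on control replicate 1. Without that array 0 of its 11 genes passed higher. *GAL3*, a galactose sensor gene, read 3.53, 4.23 and 4.39 against 4.79, 5.17 and 5.06 (-0.95 ± 0.40), and it lost the thresholds without p*MAG* replicate 1 (-0.69) and without control replicate 2 (-0.87) or 3 (-0.92). The alcohol dehydrogenase gene *ADH5* and the proline permease gene *PUT4* had their lowest value on the same control array, at 1.31 and 0.46. *PUT4* kept the thresholds without it, with a difference of 1.42 in place of 2.16.

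At the cell surface, *HPF1*, a mannoprotein gene, read 5.95, 5.90 and 4.06 against 3.43, 3.44 and 3.62 (1.81 ± 0.60) and the mannoprotein gene *CWP1* was higher by 0.63 ± 0.23. *FLO11*, the flocculin gene of filamentous and biofilm growth, read 6.77, 7.51 and 6.47 against 7.92, 7.82 and 7.49, and it was lower by 0.83 ± 0.24 with replicate 2 just inside the controls. These were the 3 of 26 cell wall genes past the thresholds, and *HPF1* and *FLO11* kept them whichever array was left out, whereas *CWP1* lost them without p*MAG* replicate 2 (0.40) and without control replicate 1 (0.56). In the cell cycle lists, the forkhead factor gene *HCM1* read 3.25, 3.06 and 2.80 against 1.95, 2.16 and 1.82 (1.06 ± 0.41), and the B-type cyclin gene *CLB3* 2.21, 2.16 and 1.56 against 0.56, 1.37 and 1.33 (0.89 ± 0.24). The *CLB3* values of the controls and of p*MAG* replicate 3 lay under the lowest array median. *CLB3* kept the thresholds without any array, and *HCM1* lost them without p*MAG* replicate 1 (0.95) and without control replicate 3 (0.98). Beside *SIC1* these were the only members of the lists of G1 and S phase (13 genes) and of G2 and M phase with daughter cell separation (20 genes) to pass. Single members passed in other lists: *RPN4*, the regulator of proteasome genes (0.66 ± 0.31), the sirohaem synthesis gene *MET8* (0.62 ± 0.24), the helicase gene *DBP8* (0.67 ± 0.26), the phospholipid methyltransferase gene *OPI3* (-0.86 ± 0.40) and the gluconeogenesis gene *FBP1* (-0.78 ± 0.30). None of these 5 kept the thresholds in every fit without 1 array. *MET8* lost them without p*MAG* replicate 1 (0.49) and without control replicate 1 (0.32), and *FBP1* without p*MAG* replicate 3 (-0.71) and without control replicate 3 (-0.43). *DBP8* lost them without p*MAG* replicate 1 (0.60) or 3 (0.49) and without control replicate 1 (0.57). *RPN4* lost them without any single array other than p*MAG* replicate 1 (0.57 to 0.75), and *OPI3* without any of the 6 (-0.95 to -0.78).

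**Figure D5:**
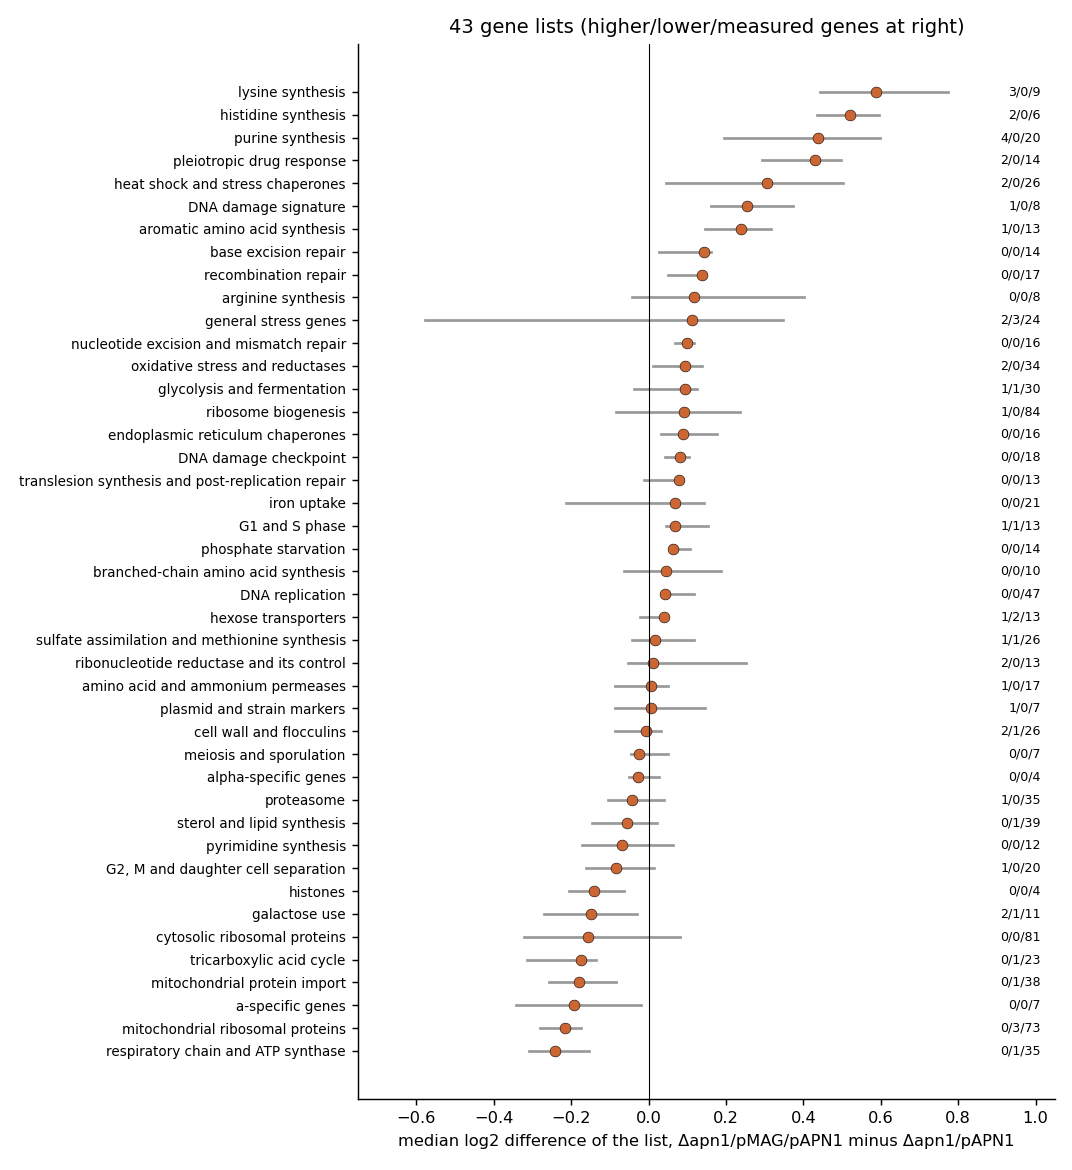
Median log2 difference of each of the 43 gene lists (points; x axis, Δ*apn1*/p*MAG*/p*APN1* minus Δ*apn1*/p*APN1*), with a line from the lowest to the highest median when 1 of the 6 arrays is left out, and at right the genes past the thresholds higher and lower and the genes measured. Lysine synthesis (0.59) is at the top, the respiratory chain (-0.24) at the bottom, and the line of the general stress genes runs from -0.578 to 0.346.

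The same plasmid was compared in 2 other backgrounds on 12 other arrays, wild type and Δ*apn1* without p*APN1*, each with pYES-MAG against empty pYES. Some of these arrays stood apart too. Of the single-gene probe sets, Δ*apn1*/p*MAG* replicate 1 had 110 at least 1.5 below both other replicates and 79 as far above. Its control probe set for the 5' end of actin read 2.445, against 9.446 and 9.168 on replicates 2 and 3. By the same measure WT/p*MAG* replicate 1 had 78 probe sets below both other replicates. WT/p*MAG* replicate 3 had 36 and wild-type replicate 1 had 39 above both others. *MAG1* read 1.48 on WT/p*MAG* replicate 2, under the lowest array median. The cause was not tested, and the differences, interactions and limma errors include these arrays. Of the 158 probe sets 107 (67.7%) had differences of 1 sign in all 3 backgrounds, against 39.5% of all probe sets, and this share says nothing of single genes. Across genes, the p*MAG* differences here correlated with those in Δ*apn1* at a Pearson r of 0.359 and with those in wild type at 0.343. As examples of 1 sign, the *MMP1* differences were -1.59 here, -1.57 in Δ*apn1* and -1.09 in wild type, and those of *PDR10* 1.36, 1.42 and 1.28. *HXT5* gave 0.89, 0.87 and 0.87. The p*MAG* difference was tested between backgrounds as an interaction over all probe sets. Against Δ*apn1*, limma called 0 of 6504 (0%) after adjustment and 203 before it, and the methods' test 0 and 210. Against wild type, limma called 0 (0%) and 255 and the methods' test 0 and 246.

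*HUG1* showed where the arrays of the 3 backgrounds lay. It read 5.13, 6.02 and 7.13 in Δ*apn1*/p*MAG* and 6.31, 5.54 and 5.63 in WT/p*MAG*. p*MAG* replicate 1, at 6.75, was inside the range of these 6 arrays, and replicates 2 and 3, at 2.51 and 4.11, were below all of them. The *HUG1* differences were 3.23 here, 4.71 in Δ*apn1* and 4.70 in wild type, which did not differ past the adjusted test (adjusted p of the interactions 0.998 and 0.999). Without p*MAG* replicate 1, whose *APN1* and *LEU2* signals were low, the difference was smaller than in Δ*apn1* by 2.63 ± 0.65 and than in wild type by 2.62 ± 0.65, but neither passed the adjusted test (adjusted p = 1 and 0.998 in limma). *RNR3* gave 1.58, 1.42 and 2.00 in the same order, and without that array 1.11 here. The *MAG1* signal differed between these strains too. It read 7.175, 2.885 and 1.824 in Δ*apn1*/p*MAG* and 6.14, 1.48 and 6.91 in WT/p*MAG*, against 3.80, 2.83 and 1.82 on p*MAG* replicates 1 to 3. Whether the *MAG1* level bears on the *HUG1* differences was not tested. For some named genes, picked for this contrast, the difference was nearer to 0 in wild type. *AQR1* had 0.81 here, 0.46 in Δ*apn1* and 0.03 in wild type. *GAC1* had -1.11 here and 0.15 in wild type. *CLB3* had 0.89 here and -0.05 in wild type, and *YLR177W* -1.19 and -0.15. None of the interactions of these genes with wild type passed the adjusted test (adjusted p = 0.999 for each in limma). Without p*MAG* replicate 1 the *CLB3* difference of 0.77 was larger than in Δ*apn1* by 0.71 ± 0.36 and than in wild type by 0.82 ± 0.36. Neither of these 2 interactions passed the adjusted test in limma (unadjusted p = 0.0698 and 0.0388).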

How the data were processed

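Gene expression had been measured in 18 cultures, 3 for each of 6 strains, of which 6 arrays form the comparison. The deposited values are on the log2 scale, made by the authors with RMA, which corrects background, normalizes quantiles across arrays and summarizes probes; its version is not given in the sources used here, and the scanned images were not used. The number of arrays limits the precision. Gene names came from GEO's platform annotation: of 9335 probe sets, 6504 had 1 gene, and 328 with several, 2443 without a name and 60 controls were left out.

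In R 4.3.3 with limma 3.58.1, a linear model with a mean for each strain was fitted to all 18 arrays (12 residual degrees of freedom) and moderated with eBayes. Two-sided p-values were adjusted after Benjamini and Hochberg across the 6504 probe sets, with a threshold of 0.05. The ANOVA that the methods name was represented by the unmoderated comparison (the methods' test), and the thresholds of the methods (unadjusted p under 0.05, 1.5-fold) were applied beside it. A gene with several probe sets was counted on that with the highest mean. The fits were tested on simulated data.

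Named genes were the markers, up to 12 per direction with the smallest p past the thresholds, up to 4 per list with the smallest p, and *RNR2*, *RNR4*, *HTB1*, *HTB2* and *HUG1*; exceptions are marked. The comparison, the 43 lists (951 genes) and this rule were chosen with earlier results of these data known. Alternatives were the methods' test, the 6 arrays alone, a second quantile normalization, a replicate block, centring on array medians, leaving out the dimmest share of 0.25, array weights, trend and robust, all probe sets, gene means, and each array left out.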

Additional observations from a re-analysis of the deposited data

How the results depend on the processing

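Leaving out 1 array at a time gave 0 to 5 probe sets at an adjusted p under 0.05 and 101 to 216 past the thresholds, in place of 0 and 158. The 101 came without p*MAG* replicate 1, and the 5 without p*MAG* replicate 2 were *HXT6*, *HXT7*, *HUG1*, *ECM13* and *MBR1*. Without control replicate 3 it was 1, *YDR034C-A*. Array weights gave 9 (5 higher, 4 lower) and 212. Replicate numbers did not pair the strains (correlations of deviations 0.0708, -0.027 and -0.0681); a replicate block on the 6 arrays gave 0 adjusted and 180 past the thresholds. The other alternatives gave 0 and 112 to 186. The interaction with Δ*apn1* gave 0 to 0 and that with wild type 0 to 4 when 1 array was left out, the 4 without WT/p*MAG* replicate 3; the cause was not tested.

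Of 76 followed probe sets past the thresholds, 0 reversed in 760 fits under the 10 other alternatives (35 lost the thresholds) and 0 in 456 fits without 1 array (105 lost them). Differences of 5 genes that did not pass turned their sign without 1 array. They ran from -1.80 to 0.21 for *LEU2* (brightest probe set; the high end without p*MAG* replicate 1), from -0.228 to 0.0448 for *RNR2* (0.0361 without p*MAG* and 0.0448 without control replicate 2), from -1.53 to 0.105 for *TSL1*, from -2.13 to 0.211 for *GAD1* (both turned without p*MAG* replicate 3), and from -0.58 to 2.08 for *GPH1* (-0.58 without control replicate 1, -0.318 without p*MAG* replicate 2).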

Other observations

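Several genes outside the lists, chosen after their values were seen, were lower with p*MAG* at the thresholds. *MAL31*, a maltose permease gene, read 2.06, 1.94 and 1.95 on the p*MAG* arrays and 2.71, 2.92 and 2.98 on the controls (-0.89 ± 0.25), and *MAL11*, an alpha-glucoside transporter gene, was lower by 0.71 ± 0.26. *JEN1*, a lactate and pyruvate transporter gene, read 3.22, 3.25 and 3.40 against 3.998, 4.28 and 4.77 (-1.06 ± 0.41). *RGI1*, which is linked to energy metabolism in respiring cells, read 4.16, 6.13 and 4.81 against 7.06, 6.95 and 7.49 (-2.13 ± 0.74). The groups did not overlap in *MAL31*, *JEN1* and *RGI1*. *MAL31* was the only one of these 4 genes that kept the thresholds whichever array was left out, and its probe set can bind related transcripts. *MAL11* lost them without p*MAG* replicate 1 (-0.59) or control replicate 3 (-0.60), *JEN1* without control replicate 3 (-0.85) and *RGI1* without p*MAG* replicate 1 (-1.70).

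Also lower at the thresholds, and also chosen after their values were seen, were 3 further genes. The choline kinase gene *CKI1* read 1.94, 2.06 and 2.63 against 3.04, 2.86 and 3.18 (-0.82 ± 0.25) and kept the thresholds in every such fit, and the inositol transporter gene *ITR1* read 8.36, 7.49 and 8.09 against 8.82, 8.82 and 8.73 (-0.81 ± 0.28) and lost them without p*MAG* replicate 2 (-0.57). *CSR2*, which encodes an adaptor of the ubiquitin ligase Rsp5, was lower past the thresholds on 3 of its 6 probe sets, by 0.93 to 1.31. The brightest of the 3 kept the thresholds whichever array was left out, and the other 3 probe sets had differences of -0.34 to -0.13. None of these genes passed the adjusted test.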
